A study of Mus musculus with 15 samples.

Results

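The comparison described here is between tumors grown from 1 Pbrm1 knockout clone of Renca cells, Pbrm1 KO #18, and control Renca tumors. Renca is a kidney cancer line that arose spontaneously in a BALB/c mouse, and Pbrm1 had been disrupted in it with CRISPR/Cas9 and a repair template. The 10 tumors, 5 in each group, were chosen by the cell line named in the sample records and were 10 of 15 tumors sequenced, the other 5 coming from a second knockout clone, Pbrm1 KO #4. Of 18279 genes in the table, 16543 averaged 10 or more normalized counts over the 10 tumors and were tested. Cells in diluted Matrigel had been injected under the skin of the back of female BALB/c mice aged 4 to 6 weeks, and tumors were taken at the latest when they reached 1000 mm3. The sample records name the control cells as parental Renca, whereas the series description and the methods name them as control knockout cells. The same protocol text covers untreated mice and mice given a PD-1 antibody, and it does not say which of them gave these tumors. The knockout lines were picked as single clones, so each knockout group is 1 clone and each tumor a separate graft of it, and an effect of the knockout and a property of the clone cannot be told apart from clone 18 and control alone.

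PBRM1 is the polybromo subunit of PBAF, a SWI/SNF chromatin remodeling complex that slides and ejects nucleosomes and that is directed to its sites in part by PBRM1's bromodomains, which bind acetylated histones. PBAF shares its ATPase and core with other SWI/SNF complexes and is set apart by PBRM1, ARID2, BRD7 and PHF10. In clear cell kidney cancer PBRM1 is among the genes most often lost. The comparison addresses how tumors lacking it differ in expression, and in particular how their immune and vascular genes do.

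Libraries were deep, with 37763097 to 49099168 reads counted to genes in control tumors and 32924414 to 42246422 in clone 18 tumors, recovered from the deposited values. Euclidean distances on the log2(normalized count + 1) scale over all tested genes were 56.8 to 83.7 between control tumors, 63.2 to 92.2 between clone 18 tumors and 87.6 to 115.8 from clone 18 to control tumors. Tumor 13 stood farthest from the rest of clone 18, at a median of 83.8. Control tumor 1 was the highest control, and control tumor 2 the lowest, for 19 of 21 tested T cell markers, and tumors 11, 14 and 15 alone among clone 18 tumors carried high skeletal muscle transcripts. Both patterns touch results that follow. Because whole tumors were sequenced, fewer cells of a type and less RNA per cell cannot be told apart for any gene below.

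Expression differed widely. Of 16543 genes, 4219 passed an adjusted p of 0.05 (25.5%), 1836 being higher in clone 18 (11.1%) and 2383 lower (14.4%). Higher genes made up 43.5% of the calls on the deposited scale, but 54.2% after quantile normalization, which moved the median log2 difference of all genes from -0.02 to 0.025, so the balance of rises and falls depended on the scaling. The large changes were mostly losses: 303 genes were more than 2-fold higher and 568 more than 2-fold lower, and beyond 16-fold there were 6 rises and 35 falls. The 5 clone 18 tumors and the 5 control tumors did not overlap for 3029 genes (18.3%), of which 2834 also passed the test. For each list of genes, the share of tested members that passed and their median log2 difference stand in parentheses, and the share is to be read against 25.5%. Alternatives are named where they moved a list's count by over 1.5 times or ended a call, the equal-variance test being one that takes each gene alone. All log2 differences below are clone 18 minus control, on the log2(normalized count + 1) scale, which understates changes of low genes, and are given ± the standard error (SE) of the limma fit. The strand setting of the counting is not given in the sources used here, so where a named gene overlaps another on the opposite strand their reads cannot be told apart.

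**Figure D1:**
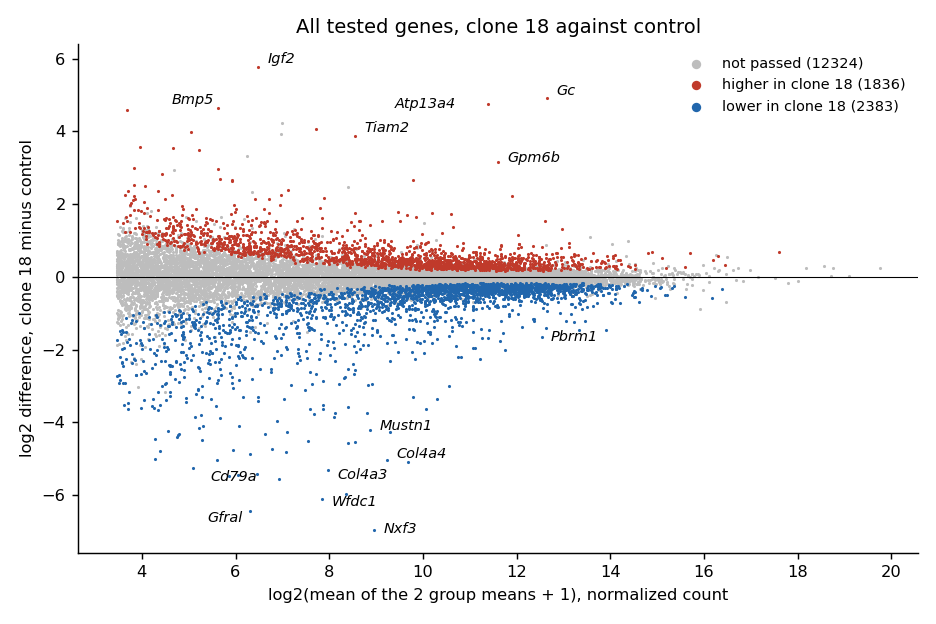
Log2 difference between clone 18 and control tumors against the mean level (log2 of the normalized count + 1) for all 16543 tested genes, 1 point per gene. Red points (1836) passed the test as higher in clone 18 and blue points (2383) as lower. The largest differences, among them Nxf3, Gfral and Wfdc1, lie below 0.

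Pbrm1 itself (chr14:31019138-31121592, GRCm38) was read first, as a check of the labels. It had 9704, 9871, 8959.7, 7452 and 9075 normalized counts in control tumors 1 to 5 and 2725, 3138, 2572, 2866 and 2892 in clone 18 tumors 11 to 15. The groups did not overlap, and clone 18 held 31.5% of the control mean (9012 ± 956 against 2838 ± 210.3, SD, n = 5). The log2 difference was -1.66 ± 0.08 (adjusted p = 1.46e-08), and a two-sided exact permutation test over all splits of the 10 tumors into equal groups gave p = 0.00794, the smallest it can give. Whole tumors also contain host cells with intact Pbrm1, and the table gives no exon-level reads, so how much of the remaining signal came from edited transcripts was not tested.

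Genes close to Pbrm1 were examined next. Within 500 kb on chromosome 14, 26 other genes were tested, of which 3 rose, 6 fell and 17 did not pass. Thus 9 of 26 passed, where 25.5% of all genes did, and their median log2 difference was -0.018. A pair of adjacent genes upstream lost far more than Pbrm1. Mustn1 (chr14:30879200-30881610), a small nuclear protein of muscle and bone, had 817, 1111, 794, 972 and 733 normalized counts in control tumors and 43.9, 48, 52.4, 44.1 and 42.5 in clone 18 tumors. The groups lay far apart, with a log2 difference of -4.22 ± 0.14 (adjusted p = 8.47e-10). Itih4 (chr14:30886476-30902353), which encodes a secreted hyaluronan-associated inhibitor chain, had 75.4, 152, 94.6, 121 and 71.9 in control tumors and 11.2, 7.4, 30.1, 6 and 31.3 in clone 18 tumors (-2.75 ± 0.43, adjusted p = 0.000513). None of the 6 tested genes lying between Itih4 and the Pbrm1 start passed the test, and neither did Bap1 (0.04), a kidney cancer tumor suppressor on the other side. Stab1, a scavenger receptor of macrophages and lymphatic endothelium, fell (-0.64 ± 0.12, adjusted p = 0.0019), and Sfmbt1, a Polycomb-associated reader, fell slightly (-0.31 ± 0.10, adjusted p = 0.0371), a call lost without any 1 of tumors 1, 2, 3, 5, 11, 13 or 14 (adjusted p up to 0.0904). Tkt, Sema3g and Phf7 were the neighbors that rose, by at most 0.50 on the log2 scale, and Tkt lost its call without any 1 of tumors 3 or 11 (adjusted p up to 0.0676) and Sema3g with the equal-variance test. Clone 4 tumors had a Mustn1 range of 27.9 to 69.4 normalized counts and an Itih4 range of 8.7 to 24.9, and neither gene differed between the clones (adjusted p = 0.825 and 0.997).

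**Figure D2:**
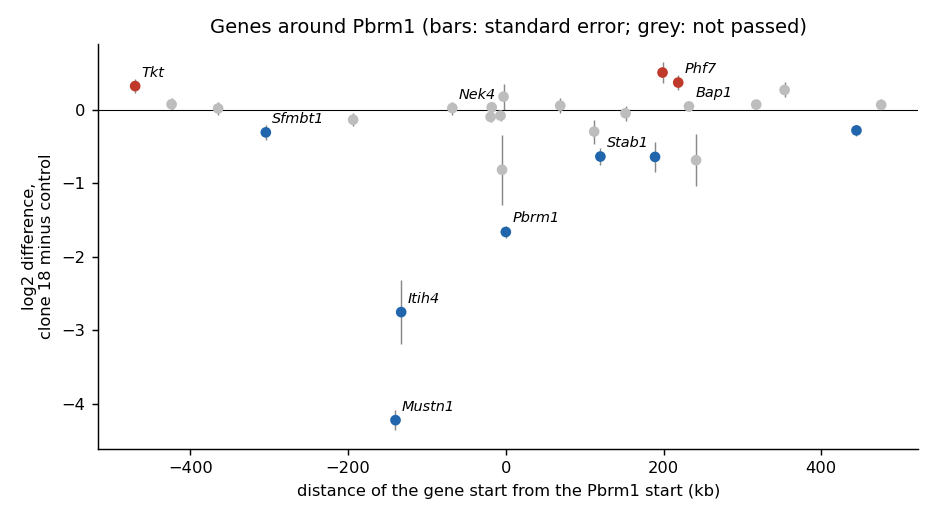
Log2 difference between clone 18 and control tumors (points) with its standard error (bars) for Pbrm1 and the 26 other tested genes within 500 kb, by the distance of the gene start from the Pbrm1 start. Mustn1 and Itih4 lie lowest, at -4.22 and -2.75, below Pbrm1 at -1.66, and none of the 6 genes between them and Pbrm1 passed.

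Partner genes of PBRM1 changed less than Pbrm1 itself. Of 4 PBAF-specific subunits, Pbrm1 included, 0 rose, 3 fell and 1 did not pass the test (75.0% passed, median log2 difference -0.39, against -0.02 over all genes). Phf10, the PHD-finger subunit of PBAF, had 11655, 12917, 11924, 13136 and 11566 normalized counts in control tumors and 8667, 7454, 8332, 8572 and 8224 in clone 18 tumors, without overlap (-0.57 ± 0.07, adjusted p = 3.98e-05). Brd7, the second bromodomain subunit, also passed (-0.22 ± 0.07, adjusted p = 0.0294), but the call was lost without any 1 of tumors 1, 3, 5, 12 or 13 (adjusted p up to 0.0704). Arid2 was at 0.23 and did not pass. Of 20 tested subunits of the other BAF assemblies, 2 rose, 3 fell and 15 did not pass the test (25% passed, median -0.04). Smarca2, the BRM ATPase, fell (-0.65 ± 0.08, adjusted p = 7.45e-05), whereas Smarca4, the BRG1 ATPase, was at 0.09 (adjusted p = 0.398). The core subunit genes Smarcd1 (-0.35 ± 0.09) and Smarcd2 (-0.47 ± 0.06) fell, and the scaffold gene Smarcc2 rose (0.28 ± 0.07). Among 27 Polycomb subunits, the repressive counterparts of SWI/SNF, 3 rose, 2 fell and 22 did not pass the test (18.5% passed, median -0.02). Suz12, a core subunit of Polycomb repressive complex PRC2, had the largest fall among them (-0.46 ± 0.09, adjusted p = 0.00169), and Pcgf1 the largest rise (0.46 ± 0.12). Of 19 kidney cancer driver genes, 1 rose, 2 fell and 16 did not pass the test (15.8% passed, median -0.02), the falls being Mitf (-0.87 ± 0.11), a melanocyte and kidney cancer transcription factor, and Nf2 (-0.26 ± 0.07).

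The largest rises with no overlap between groups were led by Igf2, the fetal insulin-like growth factor (chr7:142650766-142666816). Igf2 had 4.6, 1.8, 7.4, 0 and 1.1 normalized counts in control tumors and 171, 108, 215, 133 and 243 in clone 18 tumors, a log2 difference of 5.77 ± 0.50 (adjusted p = 3.12e-06). It was close to absent in every control tumor and at over 100 in each clone 18 tumor. The readthrough gene Gm49394 and the antisense gene Igf2os overlap it in the annotation. Gc (chr5:89417522-89457898), the vitamin D binding protein of plasma, had 558, 323, 321, 435 and 417 normalized counts in control tumors and 15358, 7832, 12261, 15114 and 11788 in clone 18 tumors. Its log2 difference was 4.91 ± 0.18 (adjusted p = 1.38e-09), with no clone 18 tumor near the control range. Atp13a4, a P5-type ATPase, went from 126 to 335 to 4603 to 5897 (4.75 ± 0.19, adjusted p = 3.3e-09). Gpm6b, a membrane proteolipid of neural cells, went from 478 to 785 to 4929.6 to 6309 (3.16 ± 0.13, adjusted p = 3.3e-09). For these 4 genes every clone 18 tumor was several times above the highest control tumor.

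Several of the other rises encode secreted regulators or signaling proteins. Bmp5, a bone morphogenetic protein, had 3.5, 6.2, 3.7, 1.1 and 1.1 normalized counts in control tumors and 129.6, 109.5, 77.2, 59.1 and 96.3 in clone 18 tumors (4.65 ± 0.40, adjusted p = 2.79e-06). Grem1, a secreted BMP antagonist, had 9.3, 28.2, 12.1, 25.8 and 6.3 in control tumors and 182, 109.5, 56.3, 54.1 and 113 in clone 18 tumors (2.64 ± 0.43, adjusted p = 0.000713). A ligand and an antagonist of the same pathway thus rose in the same tumors, while another ligand gene, Bmp4, fell (-1.61). The ligand genes Bmp2 (0.81) and Bmp7 (-1.38) did not pass. Tiam2, a RAC exchange factor, went from 39.6 to 59.3 to 530.3 to 863 (3.88 ± 0.17, adjusted p = 4.87e-09). March10, an E3 ubiquitin ligase, had no read in any control tumor and 19.4, 30.8, 24.9, 18 and 24.6 normalized counts in clone 18 tumors, at least 38.1-fold higher when the control group is set at a floor of 3 reads over its 5 libraries. The fitted value for March10 (4.59) is no bound. The rest of the 20 largest rises ran from 2.97 down to 1.89 on the log2 scale. They included Ces1f, a carboxylesterase (2.97 ± 0.52), Cntn1, a neural contactin (2.65 ± 0.34), Prom1, the stem cell surface protein CD133 (2.24 ± 0.50), Scin, an actin-severing protein (2.39 ± 0.24), Apoc1, a lipoprotein component (2.14 ± 0.51), and Rap1gap, an inhibitor of the RAP1 GTPase (1.89 ± 0.12). Spdya, Vstm5, Impg2, Htr1b, Paqr5 and Lrp2bp completed the 20. Lrp2bp overlaps Ankrd37, a hypoxia-induced gene that also rose (1.71 ± 0.27), on the opposite strand. Htr1b, a serotonin receptor, lost its call without tumor 11 (adjusted p up to 0.0528).

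**Figure D3:**
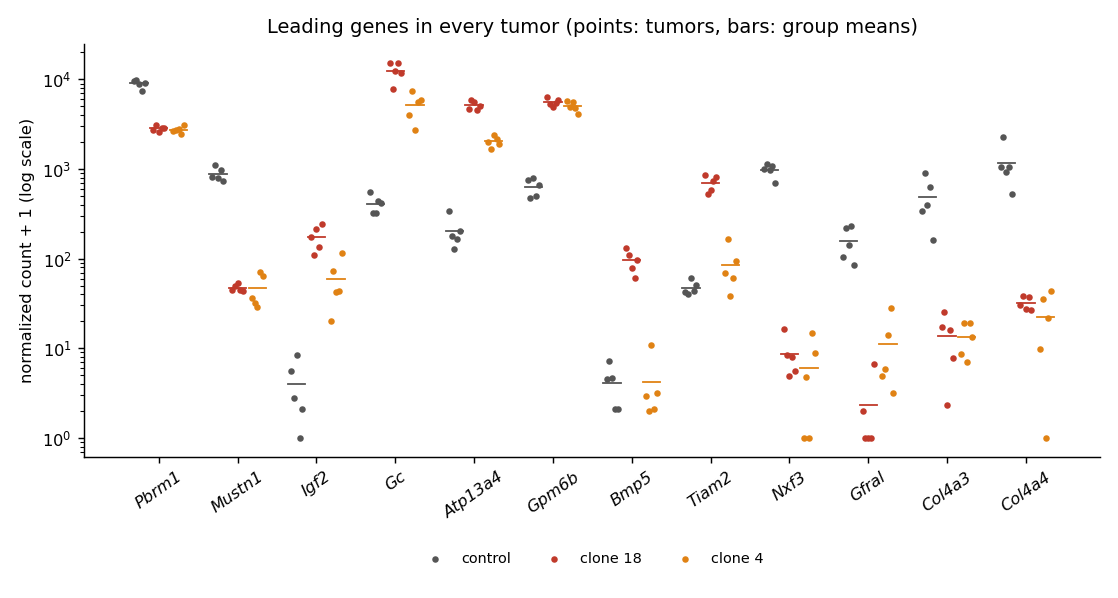
Normalized count + 1 (log axis) of 12 genes in every tumor, with control tumors in grey, clone 18 in red and clone 4 in orange, and a bar at each group mean (n = 5). Clone 18 and control do not overlap for any of the 12 genes, and Bmp5 and Tiam2 separate clone 18 from clone 4.

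The 20 largest falls were larger in size, each a decrease of 4.36 or more on the log2 scale, and 14 of them had a clone 18 mean under 10 normalized counts. Nxf3 (chrX:136072099-136085255), a member of the nuclear RNA export family, had 1006, 1148, 978, 1082 and 703 in control tumors and 15.3, 7.4, 3.9, 7 and 4.5 in clone 18 tumors (-6.95 ± 0.29, adjusted p = 3.3e-09). Gfral, the receptor of GDF15, had 104, 217, 140, 229 and 84.6 in control tumors and 1, 0, 0, 0 and 5.6 in clone 18 tumors (-6.43 ± 0.53, adjusted p = 1.96e-06). Neither exceeded 15.3 in any clone 18 tumor. Gdf15, the ligand of Gfral, fell as well, from 3559 to 4418 to 2314 to 3554 (-0.62 ± 0.11, adjusted p = 0.0012). Mapk4, an atypical MAP kinase, had 496, 870.2, 572, 669 and 632 in control tumors and 29.6, 30.8, 24.9, 14 and 36.9 in clone 18 tumors (-4.56 ± 0.24, adjusted p = 2.67e-08).

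Many of the lost genes varied strongly among control tumors. For 15 of the 20, control tumor 2 was the highest control, and for 19 of the 20 the lowest was tumor 1 or tumor 5. Wfdc1, a secreted protease-inhibitor-like protein, had 54.5, 1003, 383, 788 and 38.1 in control tumors and 15.3, 4.9, 0, 0 and 3.4 in clone 18 tumors (-6.11 ± 0.97, adjusted p = 0.000571). P2rx3, an ATP-gated channel, ranged upward from 158 in control tumors, with a median of 1362, against 37.8, 18.5, 61.5, 20 and 12.3 in clone 18 tumors (-5.09 ± 0.75, adjusted p = 0.000309). Control tumors 2, 3 and 4 were thus several times above tumors 1 and 5 for both genes, and every clone 18 tumor was below all of them. The part of this variation in the size of the falls was not tested. The set also held Smoc1, a matricellular BMP-pathway protein (-5.48 ± 0.58), Dyrk4, a kinase (-5.45 ± 0.48), Hephl1, a copper-dependent ferroxidase (-5.26 ± 0.61), Cyp4f40, a cytochrome P450 (-5.05 ± 0.82), Krt20, a keratin of differentiated epithelium (-4.74 ± 0.64), Cdhr5, a brush border protocadherin (-4.51 ± 0.33), Hsd11b1, which regenerates active glucocorticoid (-4.54 ± 0.46), Ceacam10 (-4.41 ± 0.69), Trim66, Trim72, Wscd2 and Nlrp4f. All 20 kept their calls when any 1 tumor was left out.

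A few basement membrane chains were among the strongest losses, while their list as a whole was not. Col4a3 (chr1:82586921-82722059) and Col4a4 (chr1:82448423-82586849), which are transcribed head to head and encode chains of the collagen IV network of the glomerular basement membrane, fell together. Col4a3 had 340, 904, 396, 635 and 162 normalized counts in control tumors and 16.3, 24.6, 1.3, 15 and 6.7 in clone 18 tumors (-5.32 ± 0.59, adjusted p = 3.25e-05). Col4a4 had 1041, 2269, 919, 1052 and 532 and 29.6, 36.9, 26.2, 36.1 and 25.7 (-5.04 ± 0.29, adjusted p = 6.15e-08). No clone 18 tumor reached the lowest control for either gene. Col4a5, whose chain assembles with these, had 17.4, 406, 232, 249 and 43.4 and 37.8, 48, 7.9, 12 and 12.3 (-2.54 ± 0.77, adjusted p = 0.0266), with an overlap at control tumor 1, and its call was lost without any 1 of tumors 2, 3, 4, 13, 14 or 15 (adjusted p up to 0.0659). Lamb3, a chain of epithelial laminin, fell (-3.77 ± 0.49). Lamb3 overlaps Hsd11b1 on the opposite strand, so reads in the shared stretch cannot be assigned to either. Of 23 tested collagen IV and basement membrane genes, 0 rose, 5 fell and 18 did not pass the test (21.7% passed, median -0.06), which is below the 25.5% of all genes, the falls including Lamb3 and the 3 collagen chains.

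Several T cell genes fell. Of 21 tested T cell markers, 0 rose, 10 fell and 11 did not pass the test (47.6% passed, against 25.5% of all genes), and the median log2 difference was -1.60. Cd3g, a chain of the T cell receptor complex, had 181, 18.5, 41.7, 56 and 62.4 normalized counts in control tumors and 13.3, 22.1, 5.2, 4 and 17.9 in clone 18 tumors (-2.29 ± 0.56, adjusted p = 0.00937). Cd8a, the coreceptor of cytotoxic T cells, had 164, 17.6, 30.6, 44.8 and 82.5 and 11.2, 11.1, 9.2, 5 and 26.9 (-2.10 ± 0.55, adjusted p = 0.0125). Both genes overlapped between groups only through control tumor 2. Cd3d fell (-2.05 ± 0.57), as did Cd4, the coreceptor of helper T cells that macrophages also carry (-1.40 ± 0.32), and the receptor constant regions Trbc1 (-2.32 ± 0.61) and Trbc2 (-2.07 ± 0.41), whose sequences are nearly alike. Cd3e was at -1.30 and did not pass (adjusted p = 0.0782). Zap70, the kinase downstream of the receptor, was lower without overlap (131, 190.2, 122, 249.9 and 86.7 against 30.6, 19.7, 0, 18 and 36.9, -3.43 ± 0.78), and Bcl11b, a T lineage transcription factor, was too (-2.07 ± 0.34). Zap70 differed from the receptor genes in its order among controls, being highest in tumor 4. Lck, a kinase of T cell signaling, was at -0.15 and did not pass.

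The T cell count depended on control tumor 2 and on the test. The number of T cell markers that passed was 9 without any of tumors 1, 4, 5 or 11 and 14 without tumor 2, and it was 2 with a minimum mean of 50, 16 with DESeq2 and 6 with the equal-variance test. Cd8a and Cd3d lost their calls with the equal-variance test, and Trbc1 with clone 4 tumors in the fit. The summed level of the 22 T cell markers in the table was between 1409.9 and 3881 in control tumors and between 1551 and 1918 in clone 18 tumors, overlapping, since abundant members such as Thy1 (0.31), which stromal cells express too, did not fall. Cytotoxic and natural killer genes were mostly below the filter: 7 of 14 in the table were tested, of which 0 rose, 1 fell and 6 did not pass the test (14.3% passed, median -0.78). The number passing was 0 without tumor 1 and 3 without tumor 2, and 4 with no minimum mean, 0 with a minimum mean of 50 or with the equal-variance test and 2 with edgeR, with DESeq2 or with clone 4 tumors in the fit. Nkg7, a granule protein, had 115, 12.3, 18.5, 30.3 and 39.1 normalized counts in control tumors and 8.2, 4.9, 3.9, 1 and 22.4 in clone 18 tumors (-2.31 ± 0.66, adjusted p = 0.0203), and lost its call without tumor 1 (adjusted p up to 0.0516). Ncr1, a defining receptor of natural killer cells, was at -0.78 and did not pass.

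An immunomodulatory list of 24 genes that the study itself assembled was also read, and 20 of them were tested. Of these, 0 rose, 8 fell and 12 did not pass the test (40.0% passed, median -0.85). Its direction was examined by the study on these same tumors, so it is not independent evidence. Pdcd1, the PD-1 receptor of activated T cells, had 114, 25.5, 33.4, 69.5 and 52.9 normalized counts in control tumors and 11.2, 18.5, 13.1, 12 and 13.4 in clone 18 tumors (-1.86 ± 0.37, adjusted p = 0.00258). Cxcl9, an interferon-gamma-induced chemokine that draws activated T cells, had 1290.5, 128, 240.2, 251 and 301 and 63.3, 248, 44.5, 38.1 and 122 (-1.95 ± 0.57, adjusted p = 0.0234). Pdcd1 was lower in every clone 18 tumor than in any control tumor, while for Cxcl9 tumor 12 lay inside the control range and control tumor 1 far above it. The Cxcl9 call was lost without any 1 of tumors 11, 13 or 14 (adjusted p up to 0.0617). Cxcl10, a chemokine for the same receptor, fell (-1.25 ± 0.30, adjusted p = 0.00846). Icam1, an adhesion ligand of leukocytes, had 1333, 764, 795, 949 and 873 and 675, 647, 571, 517 and 527 (-0.66 ± 0.14, adjusted p = 0.00395), without overlap. Cxcr6 (-2.11 ± 0.63) and Lag3 (-1.04 ± 0.36) also passed, but lost their calls without any 1 of tumors 1, 5, 11 or 14 (adjusted p up to 0.0624) and without any 1 of tumors 1, 2, 3, 4, 5, 11, 12, 13 or 15 (adjusted p up to 0.128), respectively. Ctla4 was at -1.56 and Cd28 at -1.43, neither passing. Members near 0 included the interferon-induced transcription factor gene Irf1 (0.10) and the PD-1 ligand genes Cd274 (0.14) and Pdcd1lg2 (0.16). Ciita, the master regulator of class II genes, which lies on chromosome 16, was at -0.57 (adjusted p = 0.216). The number passing was 5 without tumor 11 and 10 without tumor 2, and 4 with a minimum mean of 50 or with the equal-variance test.

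**Figure D4:**
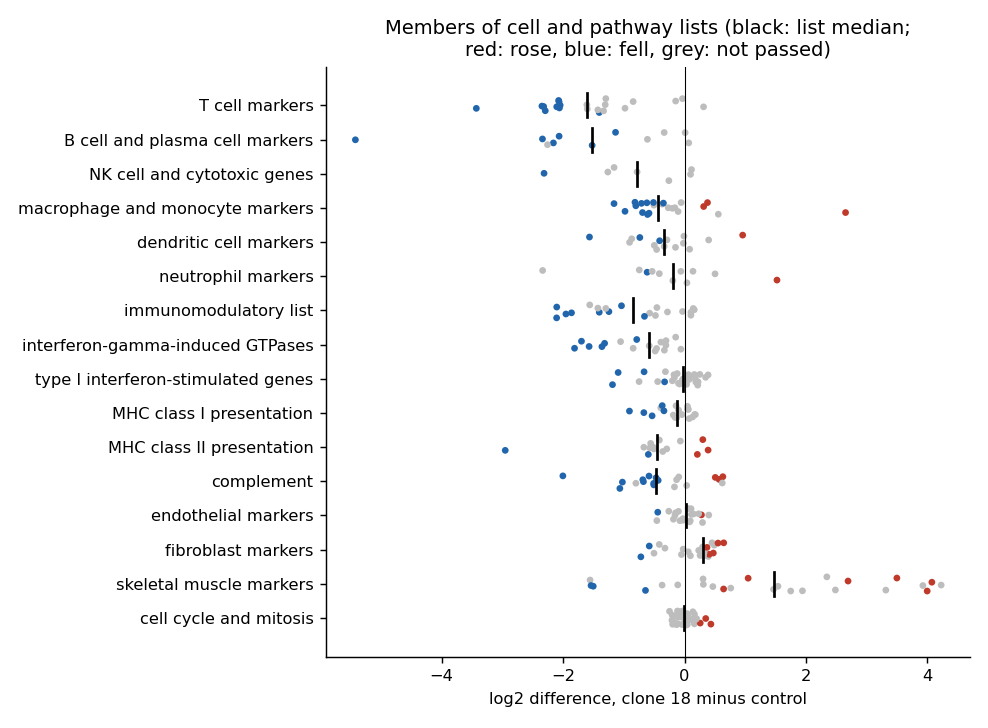
Log2 difference between clone 18 and control tumors for each tested member (points) of 16 cell and pathway lists, with the list median as a black bar. The medians of the T cell (-1.60) and B cell (-1.52) lists lie lowest, and skeletal muscle markers highest (1.46).

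The GTPases that interferon-gamma induces against intracellular pathogens, the GBP and IRG families, fell in part. Of 17 tested, 0 rose, 6 fell and 11 did not pass the test (35.3% passed, against 25.5% of all genes), with a median of -0.58. Tgtp1 had 774, 159, 176, 366 and 309 normalized counts in control tumors and 70.4, 109.5, 60.2, 97.2 and 147 in clone 18 tumors (-1.70 ± 0.37, adjusted p = 0.00481), and its near-identical copy Tgtp2 had 1262, 284, 339, 532 and 529 and 176, 254, 149, 192 and 236 (-1.36 ± 0.32, adjusted p = 0.0065). Neither overlapped between groups. Iigp1 (-1.32 ± 0.36), Ifi47 (-0.79 ± 0.20), Gbp6 (-1.81 ± 0.51) and Gbp10 (-1.57 ± 0.43) also fell, the last pair being close copies of each other. Gbp6 lost its call without any 1 of tumors 1 or 5 (adjusted p up to 0.0535). All 17 genes were highest in control tumor 1 and lowest in control tumor 2 among the controls, and the number that passed was 5 without any of tumors 1 or 5 and 12 without tumor 2. Iigp1 and Ifi47 lost their calls with the equal-variance test.

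To show the DNA in front of genes that fell, the 250 bases upstream of the RefSeq start (GRCm38.p6) are given 5′ to 3′ for a pair of these GTPases and for the interferon-gamma-induced chemokine genes Cxcl9 and Cxcl10, with capitals marking matches to TTCNNNGAA, the gamma-activated site that STAT dimers bind, or GAAANNGAA, the core of the interferon-stimulated response element, on either strand. The windows are chr5:92328080-92328329, minus strand for Cxcl9, chr5:92348890-92349139, minus strand for Cxcl10, chr11:48992247-48992496, minus strand for Tgtp1 and chr11:49064213-49064462, minus strand for Tgtp2.
Cxcl9: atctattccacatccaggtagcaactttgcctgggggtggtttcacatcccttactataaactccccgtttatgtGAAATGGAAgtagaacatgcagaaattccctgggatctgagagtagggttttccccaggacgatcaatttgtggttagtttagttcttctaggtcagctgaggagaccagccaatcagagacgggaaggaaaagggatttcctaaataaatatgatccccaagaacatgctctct
Cxcl10: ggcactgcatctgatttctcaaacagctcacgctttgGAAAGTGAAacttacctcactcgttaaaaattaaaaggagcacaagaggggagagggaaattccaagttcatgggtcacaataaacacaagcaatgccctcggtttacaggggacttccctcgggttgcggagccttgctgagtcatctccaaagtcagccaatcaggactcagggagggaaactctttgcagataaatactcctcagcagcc
Tgtp1: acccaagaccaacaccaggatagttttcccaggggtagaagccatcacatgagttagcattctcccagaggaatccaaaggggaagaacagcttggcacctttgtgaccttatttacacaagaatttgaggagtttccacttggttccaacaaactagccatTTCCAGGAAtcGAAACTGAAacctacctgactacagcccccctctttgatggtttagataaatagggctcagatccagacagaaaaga
Tgtp2: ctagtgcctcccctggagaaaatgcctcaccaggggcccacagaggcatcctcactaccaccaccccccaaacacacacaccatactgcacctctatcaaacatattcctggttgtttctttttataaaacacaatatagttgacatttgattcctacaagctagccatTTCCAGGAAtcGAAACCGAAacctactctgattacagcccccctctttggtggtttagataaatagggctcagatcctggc

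In both Tgtp promoters a match to each motif lies in one block, whereas Cxcl9 and Cxcl10 each hold a match to the interferon-stimulated core alone. Among 11 of the 17 GTPase genes with an entry, 6 (54.5%) held TTCNNNGAA and 10 (90.9%) held GAAANNGAA in these 250 bases. Over the 11547 tested genes with an entry, the shares were 7.26% and 7.64%. Matches occurred in GTPases with and without a call. The 8 with an entry that did not pass included 4 with TTCNNNGAA and 8 with GAAANNGAA. Of the GTPases that fell, only Tgtp1, Tgtp2 and Ifi47 had an entry, and Ifi47 held neither motif. Gbp6, Gbp10 and Iigp1 had none, so these few genes cannot show whether the motifs go with the fall. Among genes that fell, 8.4% held TTCNNNGAA and 7.32% GAAANNGAA, and among genes that rose 6.16% and 7.58%. A match describes letters in the window and not binding.

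Receptors and signaling genes of the interferon pathways were read separately. Ifngr1, the ligand-binding chain of the interferon-gamma receptor, had 9344, 8913, 9180.4, 10402 and 9586 normalized counts in control tumors and 11801, 10371, 8617, 11549 and 11929.6 in clone 18 tumors and did not pass (0.19 ± 0.09, adjusted p = 0.138). Ifngr2, the signaling chain, had 3892, 3522, 3822, 3981 and 3568 and 3008, 2799, 2754, 2412 and 2880.5 (-0.44 ± 0.07, adjusted p = 0.000509). Each clone 18 tumor was below each control tumor for Ifngr2. The type I interferon receptor genes Ifnar1 (-0.36 ± 0.06, adjusted p = 0.0013) and Ifnar2 (-0.48 ± 0.07, adjusted p = 0.000337) were lower by similar amounts. All 3 of these lie on chromosome 16, and the median over that chromosome was a log2 difference of -0.28 in clone 18, and a gene-specific part of their fall cannot be told apart from that. Jak1 and Jak2, the kinases that the interferon-gamma receptor uses, were at 0.01 and 0.08 and did not pass. Stat2 rose (0.45 ± 0.12, adjusted p = 0.0115), a call lost with the equal-variance test, and Ptpn6, the phosphatase SHP-1 of blood cells, fell (-0.69 ± 0.12, adjusted p = 0.00106). In the whole receptor and JAK-STAT list of 20, 1 rose, 5 fell and 14 did not pass the test (30.0% passed, median 0.00).

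Type I interferon-stimulated genes as a list were near 0. Of 30 tested, 0 rose, 4 fell and 26 did not pass the test (13.3% passed, median -0.02). The falls were Ifit3, an antiviral RNA-binding protein (556, 528, 446, 555 and 561 against 267, 249.8, 127, 274 and 284, -1.19 ± 0.19), Ifi44 (-1.09 ± 0.22), Zbp1 (-0.67 ± 0.18) and Parp9 (-0.33 ± 0.10), which lies on chromosome 16 and lost its call without any 1 of tumors 1, 4, 13 or 14 (adjusted p up to 0.0747). Tumor 13 had the lowest Ifit3 and Ifi44 levels, and the number passing was 3 without any of tumors 1 or 4 and 10 without tumor 13. It was 7 with upper-quartile scaling or with quantile normalization and 2 with the equal-variance test, which ended the Zbp1 call.

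Antigen presentation genes were read as a class I and a class II list. Of 19 class I genes, 0 rose, 5 fell and 14 did not pass the test (26.3% passed, median -0.13), a share near the 25.5% of all genes. The heavy chain genes H2-K1 (0.06) and H2-D1 (-0.13) did not pass. The falls were Tapbpl, a peptide editor (1429.8, 1054, 1099.8, 1097 and 1222 against 592, 600.4, 615, 599 and 729, -0.91 ± 0.10), the immunoproteasome subunits Psmb9 (-0.67 ± 0.15) and Psmb10 (-0.53 ± 0.12), the trimming peptidase Erap1 (-0.37 ± 0.10, not called with the equal-variance test) and the chaperone Pdia3 (-0.34 ± 0.08). Other genes of peptide processing and loading did not pass, among them Tap1 (-0.39), Tap2 (0.18), Tapbp (-0.14) and Psmb8 (-0.10). Of 14 class II genes, 3 rose, 2 fell and 9 did not pass the test (35.7% passed, median -0.46). H2-Oa, a chain of the peptide-loading modulator H2-O, was the outstanding one, with 340, 385, 359.8, 366 and 289.7 normalized counts in control tumors and 50, 33.2, 44.5, 48.1 and 45.9 in clone 18 tumors (-2.95 ± 0.16, adjusted p = 3.25e-08). An antisense gene overlaps H2-Oa. The classical chains H2-Aa (-0.51) and H2-Ab1 (-0.29) did not pass, H2-Aa running from 6791 to 24855 normalized counts in control tumors, a spread that held all clone 18 tumors. Rfx5 (0.21 ± 0.06), Rfxank (0.30 ± 0.09) and Rfxap (0.39 ± 0.10), which together bind class II promoters, rose slightly, the first pair losing their calls without tumor 11 (adjusted p up to 0.0536) and without any 1 of tumors 4 or 15 (adjusted p up to 0.0506). The number of class II genes passing was 4 without any of tumors 11, 12 or 15 and 13 without tumor 2, so control tumor 2 decided that count, and it was 8 with clone 4 tumors in the fit.

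Chemokine genes passed at a share near that of all genes, and those that passed, like inflammatory genes, moved in both directions. Of 26 tested chemokines, 2 rose, 4 fell and 20 did not pass the test (23.1% passed, median -0.16), against 25.5% of all genes, and the number passing was 3 with a minimum mean of 50. Cxcl13, the attractant of B cells, had 174, 33.5, 29.7, 60.5 and 55 normalized counts in control tumors and 0, 9.8, 1.3, 8 and 4.5 in clone 18 tumors (-3.80 ± 0.65, adjusted p = 0.000988), without overlap. Xcl1, made by activated T and natural killer cells, had 77.8, 8.8, 19.5, 30.3 and 25.4 and 3.1, 2.5, 6.5, 2 and 9 (-2.40 ± 0.54, adjusted p = 0.00565). Cx3cl1, a membrane-bound chemokine (-1.06 ± 0.20), and its receptor Cx3cr1 on monocytes (-1.16 ± 0.18) were both lower without overlap. Ccl25 rose (0.52 ± 0.14). Of 25 NF-kappaB subunits and targets, 3 rose, 6 fell and 16 did not pass the test (36.0% passed, median 0.01). Vcam1, an endothelial and stromal adhesion molecule, had 1903, 1415, 1536, 1816 and 1500.3 and 519, 495, 567, 737 and 551 (-1.51 ± 0.12, adjusted p = 9.64e-07), and the cytokine gene Il1b had 1602, 1454, 1702, 2149 and 1616 and 861, 801, 698, 736 and 803 (-1.12 ± 0.10, adjusted p = 4.65e-06). Both were lower in each clone 18 tumor than in any control, and both also were lower than in clone 4 (log2 differences -1.10 ± 0.13 and -1.06 ± 0.21). Il1a fell (-1.33 ± 0.32), and Bcl3 (0.48 ± 0.14) rose.

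Several B cell genes fell, and they did so unevenly. Of 11 tested, 0 rose, 6 fell and 5 did not pass the test (54.5% passed, against 25.5% of all genes), with a median of -1.52. Cd79a, a signaling chain of the B cell receptor, had 24.4, 374, 160.4, 219.6 and 76.1 normalized counts in control tumors and 1, 2.5, 5.2, 1 and 1.1 in clone 18 tumors (-5.42 ± 0.62, adjusted p = 4.49e-05). Cd79b, its partner chain, had 95.2, 41.4, 75.1, 50.4 and 63.4 and 18.4, 16, 28.8, 34.1 and 57.1 (-1.14 ± 0.34, adjusted p = 0.0269). Among controls, Cd79a was lowest and Cd79b highest in tumor 1, so the partner chains did not follow each other, and the Cd79b call was lost without any 1 of tumors 1, 3, 5, 11 or 12 (adjusted p up to 0.0686). Ighm, the heavy chain of IgM, had 2192, 356, 1472, 504 and 1352 and 213, 247, 224, 136 and 373 (-2.06 ± 0.42, adjusted p = 0.00315), and Bank1, a B cell adaptor, fell (-1.52 ± 0.34). Ms4a1, the CD20 antigen and a defining B cell marker, had 9.3, 5.3, 13, 20.2 and 10.6 and 5.1, 9.8, 14.4, 13 and 19 and did not pass (0.07 ± 0.43). Igkc (-2.16 ± 0.67) and Ighd (-2.34 ± 0.68) passed, but lost their calls without any 1 of tumors 1, 4, 5, 12 or 13 (adjusted p up to 0.0789) and without any 1 of tumors 1 or 5 (adjusted p up to 0.0595). The summed level of the list was between 1637 and 3611 in control tumors and between 1024 and 1397 in clone 18 tumors, and the number passing was 3 without any of tumors 1 or 5 and 7 without tumor 2, and 3 with a minimum mean of 50 or with the equal-variance test.

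Macrophage genes held the most calls of the immune lists. Of 22 tested, 3 rose, 11 fell and 8 did not pass the test (63.6% passed, median -0.44), against 25.5% of all genes. Csf1r, the receptor of macrophage colony-stimulating factor, had 21326, 13456, 18108, 12607 and 15555 normalized counts in control tumors and 8827, 9882, 8019, 9894 and 9123 in clone 18 tumors (-0.80 ± 0.12, adjusted p = 0.000476), without overlap. Cx3cr1, whose annotated span in the reference used here also holds other genes, had 9738, 4935, 9596, 4985 and 7750.2 and 3429.9, 3194, 2558, 3276 and 3474 (-1.16 ± 0.18, adjusted p = 0.000525). Aif1, the IBA1 protein, fell (-0.98 ± 0.22), as did Siglec1, an adhesion receptor of tissue macrophages (-0.82 ± 0.17), and Mrc1, the mannose receptor (-0.62 ± 0.14). Adgre1, the F4/80 antigen, passed (-0.61 ± 0.20), but lost its call without any 1 of tumors 1, 3, 5, 11, 13, 14 or 15 (adjusted p up to 0.0905). Cd68 (0.38 ± 0.10, adjusted p = 0.0106) and Cd14 (0.32 ± 0.08, adjusted p = 0.00913) rose instead. Arg1, an enzyme that depletes arginine, had 52.2, 373, 41.7, 518 and 347 and 4031, 951, 541, 482 and 1493 (2.65 ± 0.72, adjusted p = 0.0163), with a single clone 18 tumor, 11, far above the rest and tumor 14 inside the control range, and no call when clone 4 tumors shared the fit. The summed level of the list was between 176446 and 271819 in control tumors and between 151689 and 179652 in clone 18 tumors, and the number passing was 9 without any of tumors 1 or 5 and 15 without tumor 2, and 8 with limma without a trend or with the equal-variance test.

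Other myeloid lists passed at shares near or below the 25.5% of all genes. Of 15 dendritic cell markers, 1 rose, 3 fell and 11 did not pass the test (26.7% passed, median -0.34), and the number passing was 2 without any of tumors 1 or 5 and 4 without any of tumors 2, 4, 11, 12 or 15, and 2 with clone 4 tumors in the fit. Ccr7, which guides mature dendritic cells and lymphocytes to lymph nodes, rose, with 159, 119.8, 139, 214 and 139.6 normalized counts in control tumors and 281, 332, 302, 268 and 294 in clone 18 tumors (0.96 ± 0.15, adjusted p = 0.000591), a call lost when clone 4 tumors shared the fit. Clec10a (-0.74 ± 0.17) and Clec9a (-1.56 ± 0.45), lectins of conventional dendritic cells, fell, the latter losing its call without any 1 of tumors 1 or 5 (adjusted p up to 0.0605). Of 11 neutrophil markers, 1 rose, 1 fell and 9 did not pass the test (18.2% passed, median -0.19), the number passing being 1 with clone 4 tumors in the fit. Csf3r, the granulocyte colony-stimulating factor receptor, fell (-0.62 ± 0.13). Csf3r was lower in every clone 18 tumor than in any control, while the granule genes S100a8 (-0.41) and S100a9 (-0.74) did not pass. The rise in that list was Mmp9, which other cells make too. The 2 tested mast cell genes did not pass (median 0.08). The summed levels overlapped for the dendritic cell list (between 7739 and 11678 in control tumors and between 7896 and 9496 in clone 18 tumors), the neutrophil list (between 1187 and 2682 in control tumors and between 1402 and 2654 in clone 18 tumors) and the natural killer list (between 143 and 832 in control tumors and between 111 and 256 in clone 18 tumors).

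Complement genes changed in large part. Of 19 tested, 3 rose, 10 fell and 6 did not pass the test (68.4% passed, median -0.47), against 25.5% of all genes. Serping1, the C1 inhibitor, had 3418, 10369, 3324, 8664 and 2491 normalized counts in control tumors and 1052, 1488, 996, 995 and 1581 in clone 18 tumors (-2.0 ± 0.34, adjusted p = 0.000817). C1qc, a chain of the recognition molecule C1q made by macrophages, had 11531, 7692, 9814, 8458 and 9558 and 5569.9, 6565, 6058, 5017 and 5856 (-0.69 ± 0.10, adjusted p = 0.000353). Neither gene overlapped. C4b, a component of the classical pathway, fell (-1.06 ± 0.24), and the protease gene C1ra rose (0.63 ± 0.10, adjusted p = 0.000582), so the classical pathway did not move as 1 block. C3, the central component, rose as well, with 29109, 40529.5, 22199.9, 30460.4 and 25258 and 37645, 40402, 36168, 43800.1 and 48335 (0.51 ± 0.14, adjusted p = 0.0164), a call lost with the equal-variance test.

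Endothelial markers changed little, whereas the study's angiogenesis list passed at a share above the 25.5% of all genes, in both directions. Of 20 endothelial markers, 1 rose, 1 fell and 18 did not pass the test (10.0% passed, median 0.02), and the number passing was 1 without tumor 11 and 3 without tumor 4. The defining markers Pecam1 (0.15), Cdh5 (-0.03) and Kdr (-0.26) did not pass. Eng, an endothelial TGF-beta coreceptor, fell (-0.44 ± 0.09), and Esam, a junction molecule, rose (0.28 ± 0.08), losing its call without tumor 11 (adjusted p up to 0.0517). An angiogenesis list that the study assembled gave 3 rose, 4 fell and 10 did not pass the test of 17 tested (41.2% passed, median -0.18), and the number passing was 4 with limma without a trend or with the equal-variance test. Vegfb rose, with 976, 1079.8, 1099, 1173 and 1096 normalized counts in control tumors and 1386, 1470.3, 1923, 1476 and 1537 in clone 18 tumors (0.52 ± 0.09, adjusted p = 0.00113). The ligand gene Vegfa of the same family fell (-0.31), and Vegfc was at 0.075 and did not pass. The platelet-derived growth factor genes Pdgfa (-0.60 ± 0.08) and Pdgfb (-0.41 ± 0.09) fell. The cell cycle inhibitor genes Cdkn1a (0.61 ± 0.19) and Cdkn2a (0.40 ± 0.10), which stand in that list, rose, Cdkn1a losing its call without any 1 of tumors 1, 3, 12, 13 or 15 (adjusted p up to 0.0704). Hif1a (-0.22), Flt1 (-0.18), Flt4 (-0.22) and Pdgfrb (-0.20) did not pass. Ldhb passed at -0.66 ± 0.22, and lost its call without any 1 of tumors 1, 3, 5, 11, 12, 14 or 15 (adjusted p up to 0.106). Among 14 pericyte and smooth muscle markers, 1 rose, 1 fell and 12 did not pass the test (14.3% passed, median 0.13), Mylk falling (-1.12 ± 0.20) and Des rising (0.64 ± 0.10).

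Some proteases of the matrix rose, and whether stroma or tumor cells expressed them was not tested. Of 22 tested matrix proteases and inhibitors, 8 rose, 2 fell and 12 did not pass the test (45.5% passed, median 0.30), against 25.5% of all genes, and the number passing was 6 with clone 4 tumors in the fit. Mmp10, stromelysin 2, had 3089, 2802, 3517, 3152 and 3203 normalized counts in control tumors and 8121, 11542, 11002, 7854 and 7949 in clone 18 tumors (1.54 ± 0.11, adjusted p = 6.52e-07). Mmp12, the macrophage elastase, had 1858, 2534, 2165, 3040 and 3086 and 8383, 7941, 4019.8, 4739 and 4180.3 (1.16 ± 0.21, adjusted p = 0.00144). Mmp9, gelatinase B, had 199.6, 165, 131, 229.7 and 165 and 324, 1542, 457, 326 and 434 (1.52 ± 0.34, adjusted p = 0.00577). All 3 were above the controls in every clone 18 tumor. Mmp3 (1.52 ± 0.39) and Plau, the urokinase activator of plasminogen (0.65 ± 0.10), rose. Mmp9 and Mmp3 lost their calls when clone 4 tumors, among which 1 was far above the rest, shared the fit. The 2 falls were Mmp19 (1249.9, 1331, 1169, 1114 and 1199 against 362, 458, 384, 319 and 330.3, -1.72 ± 0.10) and the aggrecanase Adamts5 (-0.89 ± 0.11), which lies on chromosome 16. Of 24 fibroblast markers, 5 rose, 2 fell and 17 did not pass the test (29.2% passed, median 0.30), with Postn rising (0.55 ± 0.14, not called when clone 4 tumors shared the fit) and Fbln1 (-0.72 ± 0.09) and Lox (-0.58 ± 0.12) falling. Col1a1 (0.47 ± 0.16) and Dcn (0.65 ± 0.20) passed, but lost their calls without any 1 of tumors 1, 4, 5, 12, 14 or 15 (adjusted p up to 0.0984) and without any 1 of tumors 1, 4, 12 or 15 (adjusted p up to 0.0737). Pdgfra (0.30) and Col1a2 (0.35), the other defining markers, did not pass. The summed fibroblast level was between 124555 and 175793 in control tumors and between 128384 and 222656 in clone 18 tumors, and the number passing was 3 without tumor 15 and 9 without tumor 13, and 3 with limma without a trend and 2 with clone 4 tumors in the fit or with the equal-variance test.

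Signaling families were examined in turn. Of 29 TGF-beta family genes, 1 rose, 9 fell and 19 did not pass the test (34.5% passed, median -0.13), the rise being Grem1. Bmp5, which also rose, is not a member of this list, and Bmp4 was among the falls (-1.61). Tgfb2, a ligand, had 829.8, 941, 869.8, 772 and 707 normalized counts in control tumors and 392, 357, 364, 396 and 345 in clone 18 tumors (-1.15 ± 0.10, adjusted p = 2.06e-06). Ltbp1, which stores the latent ligand in the matrix, had 318, 546, 375, 156 and 271 and 65.3, 55.4, 44.5, 65.2 and 28 (-2.61 ± 0.31, adjusted p = 5.91e-05). The receptor gene Acvrl1 (-0.89 ± 0.10) and the transducer gene Smad3 (-0.65 ± 0.09) fell. Ligands, storage proteins, receptors and transducers each also had members that did not pass. The groups did not overlap for 7 of the 29 genes (24.1%, against 18.3% of all genes). Of 36 Wnt genes, 4 rose, 5 fell and 27 did not pass the test (25% passed, median 0.06). Notum, a secreted enzyme that inactivates Wnt ligands, rose (1047, 891, 922, 865 and 815 against 1701, 1385, 1431, 1573 and 1617, 0.76 ± 0.09), as did the ligand gene Wnt6 (0.67 ± 0.11), while the feedback target Axin2 (-0.39 ± 0.10) and the receptor gene Fzd6 (-0.41 ± 0.10) fell, Axin2 losing its call with the equal-variance test. Of 19 Notch genes, 2 rose, 2 fell and 15 did not pass the test (21.1% passed, median 0.12). The ligand gene Jag1 (0.47 ± 0.10) and the feedback target Nrarp (0.46 ± 0.11) rose without overlap, and the coactivator gene Maml2 fell, with 215, 176, 193, 141 and 188 normalized counts in control tumors and 90.8, 81.2, 69.4, 115 and 138 in clone 18 tumors (-0.91 ± 0.20). Of 28 receptor tyrosine kinases, 2 rose, 6 fell and 20 did not pass the test (28.6% passed, median 0.04), Epha2 falling (-0.41 ± 0.07), as did Ephb3 (-1.42 ± 0.31) and Alk (-0.77 ± 0.19). Ephb3 lies on chromosome 16.

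Integrin genes changed in both directions. Of 23 tested, 2 rose, 10 fell and 11 did not pass the test (52.2% passed, median -0.33), where 11.1% of all genes rose and 14.4% fell. Itga7, a laminin-binding chain, had 7922, 8113, 6649.8, 7099.6 and 7064 normalized counts in control tumors and 3187, 3145, 2816, 3387 and 3379 in clone 18 tumors (-1.21 ± 0.07, adjusted p = 9.84e-08). Itgb7, a leukocyte chain, had 901, 1008, 938, 1071 and 766 and 248, 353, 188, 272 and 279 (-1.82 ± 0.15, adjusted p = 1.66e-06), and like Zap70 it was highest in control tumor 4. Itga1, a collagen-binding chain (0.81 ± 0.11), and Itga2b, the platelet chain (1.34 ± 0.12), were the rises. None of these 4 overlapped. The number of integrins passing was 8 without any of tumors 1, 11 or 15 and 12 without any of tumors 4, 5 or 14, and 7 with limma without a trend and 6 with the equal-variance test.

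Many sterol synthesis genes fell. Of 32 cholesterol and fatty acid genes, 1 rose, 13 fell and 18 did not pass the test (43.8% passed, median -0.30), against 25.5% of all genes. Sqle, squalene epoxidase, had 14284, 14681, 13319, 12756 and 11770.1 normalized counts in control tumors and 8481, 8848, 7273, 8129 and 9474 in clone 18 tumors (-0.66 ± 0.08, adjusted p = 8.34e-05). The synthesis genes Fdft1 (-0.60 ± 0.09) and Fdps (-0.57 ± 0.09) and the sterol carrier gene Stard4 (-0.70 ± 0.10) fell by similar amounts. These changes were moderate, and the groups did not overlap for 12 of the 32 genes (37.5%, against 18.3% of all genes). The number passing was 11 without tumor 1 and 20 without tumor 4.

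Stress and metal pathways were mixed. Of 28 genes of the unfolded protein and integrated stress response, 3 rose, 8 fell and 17 did not pass the test (39.3% passed, median -0.07). Falls included Phgdh, the first enzyme of serine synthesis (28196, 29247, 28243, 29379 and 26089 against 20015, 17026, 19775, 18947 and 20835, -0.55 ± 0.07), Sesn2 (-0.60 ± 0.10), Atf6, a sensor of the endoplasmic reticulum (-0.53 ± 0.09), Ppp1r15a (-0.69 ± 0.16, not called with clone 4 tumors in the fit) and Chac1 (-0.44 ± 0.10), and Creld2 rose (0.49 ± 0.10). Of 27 NRF2 target genes, 6 rose, 4 fell and 17 did not pass the test (37.0% passed, median 0.02). Gclm, which helps to make glutathione, had 4087, 3645, 3429, 3341 and 4171 normalized counts in control tumors and 8233, 5346, 6156, 6761 and 7352 in clone 18 tumors (0.85 ± 0.11, adjusted p = 9.29e-05). Gsta4, a glutathione transferase, had 733, 469, 388, 481 and 631 and 2253, 1201, 1870.5, 1832 and 1895 (1.75 ± 0.18, adjusted p = 1.65e-05). Both rose without overlap, while Abcc1, an exporter of conjugates that lies on chromosome 16, fell (-0.82 ± 0.10). Of 21 iron genes, 2 rose, 5 fell and 14 did not pass the test (33.3% passed, median -0.04). Heph, the ferroxidase hephaestin, had 2964, 2990.1, 2831, 2787 and 2466 and 701, 554, 458, 588 and 780.3 (-2.21 ± 0.12, adjusted p = 5.13e-08), and Lcn2, the siderophore-binding lipocalin, had 1033, 2255, 954, 2328 and 1609 and 472, 461, 463, 379.9 and 458 (-1.78 ± 0.22, adjusted p = 8.57e-05). With Hephl1, 2 ferroxidases of the same family therefore fell. Of 33 hypoxia and glycolysis genes, 6 rose, 2 fell and 25 did not pass the test (24.2% passed, median 0.07), led by Egln3, an oxygen-sensing hydroxylase (1.87 ± 0.47), and Ankrd37 (1.71 ± 0.27), whereas Ndrg1 fell (-0.59 ± 0.15). The number of hypoxia and glycolysis genes passing was 5 with the equal-variance test, which ended the Egln3 call. Of 38 nuclear-encoded oxidative phosphorylation genes, 2 rose, 3 fell and 33 did not pass the test (13.2% passed, median -0.05), below the 25.5% of all genes. The number passing was 2 without any of tumors 1, 2, 5 or 15 and 4 without any of tumors 11 or 13, and 3 with upper-quartile scaling, 1 with limma without a trend and 2 with the equal-variance test.

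Growth lists differed in their shares of calls, which stood at 25.5% over all genes. Of 40 cell cycle and mitosis genes, 3 rose, 0 fell and 37 did not pass the test (7.5% passed, median -0.01). The number passing was 1 without any of tumors 1 or 11 and 4 without any of tumors 3 or 14, and 1 with limma without a trend and 0 with the equal-variance test. Mki67, the proliferation antigen, had 14227, 15409, 15602, 9037 and 12575 normalized counts in control tumors and 9401, 13977, 12099, 11900 and 10405 in clone 18 tumors and did not pass (-0.20 ± 0.14). The G1 cyclin gene Ccne1 rose (0.35 ± 0.10), a call lost with the equal-variance test. Of 22 CDK inhibitors and p53 targets, 5 rose, 4 fell and 13 did not pass the test (40.9% passed, median 0.05), with Btg2, an antiproliferative gene, falling (-0.58 ± 0.10). Of 17 IGF axis genes, 4 rose, 5 fell and 8 did not pass the test (52.9% passed, median -0.05), the number passing being 5 with the equal-variance test. Igf1 rose besides Igf2, from 2365 to 2963 to 3368 to 4509 (0.64 ± 0.09, adjusted p = 0.000183). Igf2bp3, an RNA-binding protein that binds Igf2 transcripts, had 113, 46.7, 60.3, 62.7 and 64.5 and 5.1, 13.5, 7.9, 5 and 2.2 (-3.30 ± 0.40, adjusted p = 6.8e-05), and the binding protein gene Igfbp5 fell (-1.06 ± 0.21). H19, the imprinted RNA next to Igf2, had 52.2, 43.2, 79.7, 40.3 and 168 and 62.3, 181, 397, 141 and 131 and did not pass (1.20 ± 0.45, adjusted p = 0.0657). The receptor gene Igf1r (-0.25) did not pass. Of 17 tested imprinted genes elsewhere, 2 rose, 0 fell and 15 did not pass the test (11.8% passed, median 0.03), Impact rising (0.44 ± 0.10), and the number passing was 1 without any of tumors 1, 4, 12 or 15 and 2 without any of tumors 2, 3, 5, 11, 13 or 14, and 1 with limma without a trend, with clone 4 tumors in the fit or with the equal-variance test.

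Identity genes of kidney epithelium were present in both groups. The nephron transcription factor gene Pax8 had 3411, 4143, 3363, 3764 and 3895 normalized counts in control tumors and 3105, 2719, 2995, 3247 and 3281 in clone 18 tumors (-0.27 ± 0.07, adjusted p = 0.0168), a small fall, and Pax2 was at 0.40 and did not pass. Of 18 renal tubule genes tested, 4 rose, 3 fell and 11 did not pass the test (38.9% passed, median 0.14). Spp1, osteopontin (0.58 ± 0.09), Fxyd2, a sodium pump subunit (0.41 ± 0.08), and Aqp2, the collecting duct water channel (0.82 ± 0.14), rose, and Gatm, which makes the creatine precursor (-0.92 ± 0.17), and Ggt1, the brush border glutathione peptidase (-0.99 ± 0.27), fell, the last losing its call with the equal-variance test. Of 21 epithelial genes, 4 rose, 4 fell and 13 did not pass the test (38.1% passed, median -0.07). Tjp3, a tight junction scaffold, had 222, 312, 319.9, 315 and 170.2 and 82.7, 56.6, 44.5, 44.1 and 64.9 (-2.17 ± 0.23, adjusted p = 1.93e-05), Krt7 fell (-2.49 ± 0.48) and Mal, an apical trafficking protein, rose (0.79 ± 0.12). Of 17 mesenchymal genes, 1 rose, 3 fell and 13 did not pass the test (23.5% passed, median -0.02), with falls in S100a4, a motility-linked calcium-binding protein (-1.04 ± 0.22), and Axl, a receptor tyrosine kinase (-0.46 ± 0.08). The number of mesenchymal genes passing was 2 without any of tumors 4, 5, 11, 12 or 13 and 5 without tumor 14, and 2 with limma without a trend or with the equal-variance test. The called epithelial genes thus went in both directions, while the mesenchymal list passed at a share near the 25.5% of all genes.

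Markers of muscle, skin, fat, red cells and nerve were read next, and which cells expressed them was not tested. Of 25 skeletal muscle markers, 6 rose, 3 fell and 16 did not pass the test (36.0% passed, median 1.46), and for 20 of the 25 genes, tumors 11, 14 and 15 were each above tumors 12 and 13. Acta1, skeletal actin, had 39.5, 6.2, 0.9, 6.7 and 6.3 normalized counts in control tumors and 720.5, 7.4, 15.7, 648 and 636 in clone 18 tumors (4.07 ± 1.23, adjusted p = 0.0269), and lost its call without any 1 of tumors 3, 11, 14 or 15 (adjusted p up to 0.0702). Ckm, muscle creatine kinase, had 19.7, 4.4, 1.9, 4.5 and 15.9 and 164, 6.2, 15.7, 107 and 157 (2.69 ± 0.85, adjusted p = 0.0333), a call lost without any 1 of tumors 2, 3, 4, 11, 14 or 15 (adjusted p up to 0.0855), and the myosin gene Myh4 had 1.2, 1.8, 0, 2.2 and 6.3 and 351, 1.2, 0, 53.1 and 334 without passing. Tumors 12 and 13 were at control levels for all 3, and the number of muscle genes passing was 3 without tumor 11 and 16 without any of tumors 12 or 13, and 5 with a minimum mean of 50, with limma without a trend or with the equal-variance test, 18 with edgeR and 16 with DESeq2. Eno3, the muscle form of enolase, went the other way (2456, 2136, 2787, 2239 and 1971 against 783, 778, 881, 717 and 914, -1.50 ± 0.10), as did Casq1 (-1.54 ± 0.23). The summed muscle level was between 5483 and 6583 in control tumors and between 5067 and 10707 in clone 18 tumors. Whether the source of the high muscle transcripts in tumors 11, 14 and 15 had a part in other rises was not tested. Of 8 skin markers in the table, 4 were tested and 1 rose, 1 fell and 2 did not pass the test, Krt17, a keratin of stressed epithelium, falling (-2.15 ± 0.25) and Sprr1b rising (1.79 ± 0.38). Of 9 adipocyte markers, 2 rose, 1 fell and 6 did not pass the test (33.3% passed, median -0.09), of 7 red cell markers, 1 rose, 0 fell and 6 did not pass the test (14.3% passed, median 0.06), and of 9 nerve and glial markers, 0 rose, 3 fell and 6 did not pass the test (33.3% passed, median -0.43), the latter falls being Mag (-1.02 ± 0.27), Prx (-1.14 ± 0.17) and Pmp22 (-0.43 ± 0.09). The number of adipocyte markers passing was 0 without any of tumors 3 or 12 and 2 without any of tumors 5, 11 or 15, and 1 with limma without a trend and 0 with the equal-variance test. The summed levels were between 14230.5 and 21755 in control tumors and between 14394 and 19599 in clone 18 tumors for adipocyte genes, between 1246 and 4261 in control tumors and between 1563 and 7655 in clone 18 tumors for red cell genes and between 7619 and 9566 in control tumors and between 5808 and 7179.6 in clone 18 tumors for nerve genes.

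Clone 18 and clone 4 tumors share the disrupted gene and were compared directly in a fit of all 15 tumors. Of 16543 genes, 892 differed (5.39%), 478 being higher and 414 lower in clone 18, and 194 of them differed by more than 2-fold. Pbrm1 did not (2751 ± 213 normalized counts in clone 4, log2 difference clone 18 minus clone 4 0.05 ± 0.08, adjusted p = 0.805). Of the 20 largest rises against control, 11 differed between the clones, 10 being higher and 1 lower in clone 18. Of the 20 largest falls 2 did, Gfral (-2.28 ± 0.61) and Mapk4 (-1.14 ± 0.24), both lower in clone 18. The rises were picked for high levels in these same clone 18 tumors, which favors higher values in clone 18 here. Among the falls, 14 had a clone 18 mean under 10, where a difference between clones is hard to detect. The 2 counts are therefore not comparable. The Gfral call between clones was lost in a fit of the clones alone, with edgeR and without most single tumors of either clone. Bmp5 had 1.9, 1, 9.9, 1.1 and 2.2 normalized counts in clone 4 tumors 6 to 10 (4.78 ± 0.48, adjusted p = 9.87e-06). Ces1f had 3.9, 0, 1, 1.1 and 0 in clone 4 (5.35 ± 0.57, adjusted p = 1.77e-05), and Tiam2 67.5, 163, 36.8, 60.3 and 92.5 (3.20 ± 0.29, adjusted p = 2.94e-06). Every clone 18 tumor exceeded every clone 4 tumor for these 3 genes. March10 (3.44 ± 0.44), Cntn1 (2.70 ± 0.44) and Cdhr1, a photoreceptor protocadherin (2.68 ± 0.25), were also higher in clone 18, as were Cdh19 (4.25 ± 0.86) and Platr4 (4.01 ± 0.47). Gc (1.32 ± 0.24) and Atp13a4 (1.35 ± 0.18) were higher in clone 18, whereas Gpm6b (0.15 ± 0.13) and Igf2 (1.74 ± 0.52) did not pass.

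Further genes separated the clones, not all of them with a call between clone 18 and control. Pak6 (3.14 ± 0.42), a kinase, and Rasl10a (2.80 ± 0.56) were higher in clone 18 than in clone 4, while their differences from control were -0.70 and 0.26 and did not pass. Kcnj16, a potassium channel, had 135, 87.4, 181, 115 and 91.8 normalized counts in clone 18 and 1106, 1017, 670.4, 595 and 718 in clone 4 (-2.75 ± 0.24, adjusted p = 2.63e-06). Clone 4 lay far above the control tumors (60.3, 60.8, 48.2, 88.5 and 37) and clone 18 above 4 of those 5. Ppargc1a, the coactivator PGC-1alpha of mitochondrial genes, had 53.1, 59.1, 39.3, 54.1 and 43.7 in clone 18 and 234, 202, 339, 256 and 202 in clone 4 (-2.27 ± 0.21, adjusted p = 4.11e-06), and in clone 18 it was below the controls (135, 240.4, 110.4, 119.9 and 138). Elovl7, a fatty acid elongase (-2.85 ± 0.27), Eva1c (-2.91 ± 0.35), the ubiquitin ligase gene Mid2 (-2.19 ± 0.16), Agap2 (-2.14 ± 0.15), the sodium channel gene Scn3a (-2.23 ± 0.37), the Nogo receptor gene Rtn4r (-2.13 ± 0.47) and the glucose transporter gene Slc2a2 (-2.11 ± 0.45) were lower in clone 18 as well. Among the immune genes named above, Aif1 (-0.76 ± 0.20), Bank1 (-1.69 ± 0.33), Vcam1 and Il1b were lower in clone 18 than in clone 4, and Cd68 was higher (0.52 ± 0.11).

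Chromosome 16 stood apart in clone 18. Of the tested genes, 15225 (92.0%) could be placed on a chromosome through RefSeq symbols. On chromosome 16, 483 genes had a median log2 difference of -0.28, with 14 rising (2.9%) and 219 falling (45.3%), and 80.1% lay below 0. The medians of the other 19 chromosomes ran from -0.09 to 0.04, and their shares of falling genes from 10.0% to 20.6%. By tumor, the chromosome 16 median relative to the control mean was -0.26, -0.28, -0.27, -0.32 and -0.28 in clone 18 tumors 11 to 15, and between -0.04 and 0.02 in the control tumors. All clone 18 tumors were below all control tumors, with little spread. Clone 4 tumors had a median of -0.15, and clone 18 minus clone 4 gave -0.13 over the same genes, against -0.06 to 0.02 on the other chromosomes. Along chromosome 16, each of 9 consecutive windows of 50 genes had a median between -0.365 and -0.224, and 2 of the 284 windows elsewhere were as low as the highest of these. Genes named above from this chromosome include Ifngr2, Ifnar1, Ifnar2, Parp9, Abcc1, Ephb3, Adamts5 and Eva1c, which fell, and Atp13a4, which rose. With chromosome 16 left out, 2119 placed genes fell and 1630 rose. No DNA-level data were analysed here, and the cause was not tested.

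**Figure D5:**
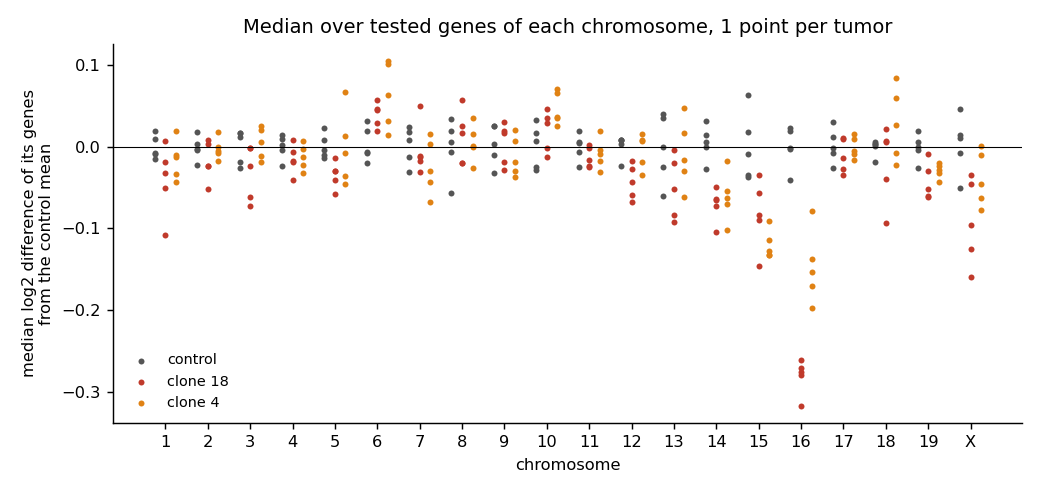
Median over the tested genes of each chromosome of the log2 difference from the control mean, with 1 point per tumor (grey control, red clone 18, orange clone 4). On chromosome 16 all 5 clone 18 tumors lie between -0.32 and -0.26, below clone 4 and control.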

How the data were processed

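RNA from 15 whole subcutaneous Renca tumors, 5 for each cell line, had been sequenced, and 10 of them entered the main comparison. The deposited values are a signal unit, read counts per gene divided by DESeq size factors by the authors, after alignment to mm10 with TopHat2 and counting with HTSeq per the submitters' processing notes (versions not given in the sources used here). The lowest values were whole multiples of 1 step per tumor (at least 99.78% within 0.05), from which reads were recovered. The records do not say whether tumors came from separate animals, so p-values measure only the spread between these samples.

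Genes with a mean of at least 10 over the 10 tumors were tested on log2(value + 1) with limma 3.58.1 (trend, R 4.3.3) and Benjamini-Hochberg adjustment, a call being an adjusted p under 0.05. All adjusted p-values in the text come from that test over all tested genes. The 2 clones were compared in a fit of all 15 tumors. edgeR 4.0.16 and DESeq2 1.42.0 on recovered reads, other scalings, filters and pseudocounts, and leaving out each tumor were alternatives. On simulated counts for clone 18 against control, limma found 73% of genes changed 2-fold and 93% of those changed 4-fold, with 5.68% false calls. Each simulated comparison changed 200 of 16543 genes, far fewer than the 4219 called between clone 18 and control. These rates therefore need not hold for the calls reported here. Columns were taken from the labels, and figures and counts were made in Python 3.11.15.

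Genes were named by rule: Pbrm1 and the interferon-gamma receptor genes, the 20 largest called rises and falls without overlap between groups, the 10 largest called differences either way between the clones, and, in each of 49 lists, defining cell markers and up to 6 called members with the largest differences, the study's 2 lists in full, predicted genes left out. Not every gene so named is printed. Neighbors of Pbrm1 and Arid2, Bcl11b, C3, Cd14, H19, H2-Aa, H2-Ab1, H2-D1, H2-K1, Igf1r, Jak1, Jak2, Lck, Mki67, Mrc1, Pax2, Pax8, Plau, Smarca4 and Thy1 were added after their values were seen. The members and lists were chosen with earlier results of these data known. Promoters, gene positions and chromosomes were taken from RefSeq and the annotation of GRCm38. Some list members are counted but not named here.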

Additional observations from a re-analysis of the deposited data

Results flagged for a closer look

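Within the control and clone 18 groups, 531 sets of 5 values were read for the genes named above. In 53 of them the highest or lowest tumor stood apart from the other 4, its gap to the nearest exceeding 0.71 of the range (Dixon's test on normalized counts). For normal and independent values the test would flag about 26.6. Normalized counts need not be normal, and genes read in the same tumors are not independent. The 26.6 is therefore no chance level here, and the flags are descriptive. Control tumor 1 was the one set apart in 13 of the 53, more often than any other tumor. Values are normalized counts. Control tumor 1 was above the other control tumors for Acta1 (39.5 against 0.9 to 6.7), Cd3e (59.2 against 7.9 to 15.9), Cd3g (181 against 18.5 to 62.4), Cdh19 (38.3 against 0 to 2.2), Cxcl13 (174 against 29.7 to 60.5), Cxcl9 (1290.5 against 128 to 301), Ifi47 (1541 against 694 to 939), Igf2bp3 (113 against 46.7 to 64.5), Iigp1 (5982 against 1131 to 2304), Lag3 (68.5 against 24.7 to 28.5), Nkg7 (115 against 12.3 to 39.1), Stab1 (16779 against 12142 to 13442) and Tgtp2 (1262 against 284 to 532). Control tumor 2 was above the other control tumors for Arid2 (5159 against 3439 to 3737), Mid2 (573 against 371 to 429), Nf2 (8399.7 against 7663 to 7823), Ppargc1a (240.4 against 110.4 to 138), Smarca2 (3284 against 2541 to 2726) and Trim72 (88.1 against 34.8 to 48.2). It was below them for Rasl10a (17.6 against 30.7 to 34.3). Control tumor 3 was above the other control tumors for Postn (9771 against 5215 to 6509). Control tumor 4 was above the other control tumors for Cdkn2a (5898 against 4982 to 5219), Plau (12090.5 against 9084 to 9888) and Scin (77.3 against 33.8 to 41.8). It was below them for Igfbp5 (214 against 405 to 482). Control tumor 5 was above the other control tumors for Igf1 (2963 against 2365 to 2513), Il1a (181 against 117 to 126), Platr4 (14.8 against 11.6 to 12.3) and Rfx5 (1321 against 1255 to 1273).

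Clone 18 tumor 11 was above the other clone 18 tumors for Arg1 (4031 against 482 to 1493) and Htr1b (68.4 against 11.0 to 23.4). Clone 18 tumor 12 was above the other clone 18 tumors for Cyp4f40 (3.7 against 0 to 1), Mitf (644 against 450 to 500.2), Mmp9 (1542 against 324 to 457) and Mrc1 (20428 against 10959 to 13363). It was below them for Ldhb (89.8 against 149 to 170.2). Clone 18 tumor 13 was above the other clone 18 tumors for Vegfb (1923 against 1386 to 1537). It was below them for Ankrd37 (901 against 1224 to 1354), Ifit3 (127 against 249.8 to 284), Pdgfra (294 against 548 to 604) and Sema3g (588 against 687 to 705). Clone 18 tumor 14 was above the other clone 18 tumors for Ciita (1141 against 688 to 770.5), Flt4 (594 against 277 to 366), Hephl1 (4 against 0 in all others), Suz12 (3269 against 3071 to 3110.1) and Trim66 (3 against 0 in all others). It was below them for Lcn2 (379.9 against 458 to 472). Clone 18 tumor 15 was above the other clone 18 tumors for Cd4 (166 against 77.2 to 95.2), Cd8a (26.9 against 5 to 11.2), Gfral (5.6 against 0 to 1), Ighd (11.2 against 0 to 3), Psmb9 (5141 against 3269 to 3737) and Tapbpl (729 against 592 to 615).

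For 51 of the genes named above, clone 18 and clone 4 differed in the direct test (limma, adjusted p under 0.05). Some of them, such as Pak6 and Rasl10a, had no call against control. Log2 differences, clone 18 minus clone 4, were positive for Ces1f (5.35), Bmp5 (4.78), Cdh19 (4.25), Platr4 (4.01), March10 (3.44), Tiam2 (3.20), Pak6 (3.14), Rasl10a (2.80), Cntn1 (2.70), Cdhr1 (2.68), Prom1 (2.28), Sprr1b (1.96), Gsta4 (1.41), Atp13a4 (1.35), Gc (1.32), Vstm5 (1.08), Lrp2bp (1.03), Gdf15 (0.97), Mal (0.79), Itga2b (0.77), Cd68 (0.52), Gclm (0.52), Des (0.45), Fxyd2 (0.41) and Tkt (0.29). They were negative for Eva1c (-2.91), Elovl7 (-2.85), Kcnj16 (-2.75), Gfral (-2.28), Ppargc1a (-2.27), Scn3a (-2.23), Mid2 (-2.19), Agap2 (-2.14), Rtn4r (-2.13), Slc2a2 (-2.11), Igf2bp3 (-1.69), Bank1 (-1.69), Tjp3 (-1.22), Tgfb2 (-1.20), Casq1 (-1.17), Mapk4 (-1.14), Vcam1 (-1.10), Mitf (-1.07), Scin (-1.07), Il1b (-1.06), Adamts5 (-0.89), Itga7 (-0.87), Aif1 (-0.76), Itgb7 (-0.75), Eno3 (-0.66) and Mmp10 (-0.49). In this comparison 5.39% of all genes passed.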

How the results depend on the processing

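The number of genes that changed between clone 18 and control stayed within 1.5 times of 4219 under all 11 alternatives, from 3559 with an equal-variance test for each gene to 4920 with DESeq2, and was 3520 to 3950 when any 1 tumor was left out. The log2 difference of Pbrm1 ran from -1.66 to -1.61 (-1.615 after quantile normalization) and from -1.73 to -1.63 without 1 tumor. The genes differing between the clones numbered 892, 662 when the clones were fitted alone, 652 to 943 without 1 tumor and 1379 with DESeq2, which in the simulated version of that comparison made 13.3% false calls, against 6.21% for limma.

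Of 224 named genes that passed against control, 0 changed direction in any alternative, 25 lost the call when some 1 tumor was left out, as given above, and 47 lost it in at least 1 alternative. Of these, 36 were lost with the equal-variance test, among them Cd8a, Cd3d, Iigp1 and Ifi47, 17 in limma without a trend and 14 in a fit of all 3 groups. Among genes that did not pass, Cdh5 changed sign to 0.01 with upper-quartile scaling and 0.016 with quantile normalization. Leaving out 1 tumor moved Cdh5 between -0.159 and 0.11, Irf1 between -0.007 and 0.236, Jak1 between -0.031 and 0.044, Ms4a1 between -0.155 and 0.323, Pdcd1lg2 between -0.058 and 0.358 and Pecam1 between -0.02 and 0.314. Of 49 list counts, 22 moved by over 1.5 times in at least 1 alternative, as given beside them, 17 of them with the equal-variance test, all 17 to lower counts, and 16 when 1 tumor was left out. The causes were not tested. Lymphocyte genes had few counts, which limits their precision. No paired analysis was possible because the labels give the tumors no replicate numbers that are shared between groups.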
